A study of Homo sapiens with 27 samples.

Results

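The genes of small RNA processing and Argonaute loading were followed through chronic and cycling hypoxia in 3 human cancer cell lines. The set was defined by 9 gene names, AGO1, AGO2, AGO3, AGO4, DICER1, DROSHA, DGCR8, XPO5 and TARBP2, and took every probe set (the group of short probes that an array reads as a unit) that the platform annotation ties to a single gene symbol among them. This gave 25 probe sets for 8 of the 9 genes, out of 41091 probe sets and 19775 genes with a single symbol on the array. DGCR8 had no probe set of its own, because its 4 probe sets also carry the symbol of a microRNA gene, and 3 of the 4 AGO2 probe sets carry a further symbol, so that AGO2 was read by 1 probe set. AGO3 belongs to the set because its response to oxygen was already known from these arrays, through its probe set 235782_at in a model over all cell lines, so its oxygen response is described below without a test.

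RNA was measured on 27 Affymetrix Human Genome U133 Plus 2.0 arrays, 3 in each of 9 groups. Cells of the melanoma line WM793B, of the prostate cancer line PC-3 and of the ovarian cancer line SK-OV-3 were each kept for 72 h at 21% oxygen (control), at 1% oxygen (chronic hypoxia) or in cycling hypoxia, in which periods of 4 h or 12 h at 1% oxygen alternated with periods at 21% oxygen. The study's cycling scheme ended with 4 h at 21% oxygen, whereas chronic hypoxia was constant. Effects of cycling and of this last reoxygenation therefore cannot be told apart. All cells were grown on glass, each line in its own medium with serum (WM793B cells with less serum and with added insulin and calcium), so that cell line and medium cannot be told apart. The labels call the arrays of a group biological replicas without saying how the cultures were separated. Values are on the log2 scale of GC-RMA, an algorithm that corrects for background by probe sequence. They ran from 2.28, the floor, to 15.5, and no level of a gene is compared here with that of another.

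In the canonical pathway, the nuclear RNase III enzyme DROSHA and its partner DGCR8 cut primary microRNA transcripts into hairpins, and the export receptor XPO5 carries the hairpins out of the nucleus with RAN. In the cytoplasm the RNase III enzyme DICER1, held by its partner TARBP2, trims them to duplexes, and a strand is loaded into an Argonaute protein, which then represses or, in the case of AGO2, can also cut matching messenger RNAs. Oxygen is known to enter this pathway at several points, among them the hydroxylation of AGO2 by collagen prolyl 4-hydroxylase and the induction of miR-210, whose host transcript is MIR210HG.

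AGO4, AGO1 and AGO3 lie next to each other in this order on chromosome 1, at chr1:35807636-35857890, chr1:35869761-35930532 and chr1:35930718-36072500 (GRCh38.p14), yet their probe sets moved differently below. The promoter windows, 250 bases before to 50 after the annotated transcription start, are therefore printed for these 3 neighbours, at the 1 start per gene that the table of promoters holds, at chr1:35807766-35808065, chr1:35882959-35883258 and chr1:35930855-35931154, all on the plus strand. Each of these 3 windows lies inside the span of its gene, whose first base is upstream. So none of the 3 is at the outer end of its gene. Those of DROSHA (chr5:31532044-31532343, minus strand) and XPO5 (chr6:43575989-43576288, minus strand) are shown because these genes had the lowest adjusted p-values under chronic hypoxia in PC-3 and WM793B cells respectively. The sequences are from RefSeq, GRCh38.p14. Capitals mark ACGTG and GCGTG, the core letters bound by hypoxia-inducible factors, on either strand (CACGT and CACGC on the other).
AGO4: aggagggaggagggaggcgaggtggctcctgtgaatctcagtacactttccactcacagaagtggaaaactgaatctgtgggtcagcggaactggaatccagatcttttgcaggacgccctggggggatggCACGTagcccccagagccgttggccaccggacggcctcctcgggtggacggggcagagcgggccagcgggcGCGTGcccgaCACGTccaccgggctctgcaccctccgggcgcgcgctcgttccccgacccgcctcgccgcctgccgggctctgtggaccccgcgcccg
AGO1: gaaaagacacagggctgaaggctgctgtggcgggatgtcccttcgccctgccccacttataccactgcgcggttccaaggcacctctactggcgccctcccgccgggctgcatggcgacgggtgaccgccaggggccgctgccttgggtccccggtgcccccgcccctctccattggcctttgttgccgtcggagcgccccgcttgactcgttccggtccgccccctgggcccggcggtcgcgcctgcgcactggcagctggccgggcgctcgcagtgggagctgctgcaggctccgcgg
AGO3: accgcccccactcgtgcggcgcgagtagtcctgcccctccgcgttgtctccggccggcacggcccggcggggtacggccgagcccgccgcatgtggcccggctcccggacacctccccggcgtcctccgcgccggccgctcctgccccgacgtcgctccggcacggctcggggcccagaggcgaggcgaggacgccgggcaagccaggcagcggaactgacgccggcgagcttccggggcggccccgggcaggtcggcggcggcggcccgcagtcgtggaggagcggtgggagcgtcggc
DROSHA: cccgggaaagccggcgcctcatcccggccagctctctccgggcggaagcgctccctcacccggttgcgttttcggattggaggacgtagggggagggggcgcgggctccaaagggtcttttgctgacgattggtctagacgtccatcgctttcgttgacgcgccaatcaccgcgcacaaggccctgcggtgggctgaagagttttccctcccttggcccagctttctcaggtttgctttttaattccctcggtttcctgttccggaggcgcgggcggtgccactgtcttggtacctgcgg
XPO5: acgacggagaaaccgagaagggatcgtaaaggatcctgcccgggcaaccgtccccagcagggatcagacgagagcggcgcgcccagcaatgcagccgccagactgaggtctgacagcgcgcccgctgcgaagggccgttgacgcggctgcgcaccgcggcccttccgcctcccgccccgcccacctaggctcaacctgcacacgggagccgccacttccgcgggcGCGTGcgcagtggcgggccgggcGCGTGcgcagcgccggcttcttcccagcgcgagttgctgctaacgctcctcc
The AGO4 window held ACGTG 2 times and GCGTG 1 time, and the XPO5 window held GCGTG 2 times. Neither motif occurred in the windows of AGO1, AGO3 and DROSHA. Of all 35116 promoter windows of this length, 21.4% held ACGTG and 36.5% held GCGTG. These are matches of letters, and no binding was measured.

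The labelled cell types were checked on marker lists, read by group. The 5 epithelial markers averaged 10.5 to 11.2 on the arrays of SK-OV-3 and PC-3 cells and 3.11 to 3.39 on those of WM793B cells. The mean of the 7 melanocyte markers was 5.40 to 5.66 in WM793B cells and at most 3.34 in the others, and it rested on SOX10 (10.1 to 10.6) and S100B (9.99 to 11.5). MLANA, TYR and TYRP1 were at the noise level in WM793B cells, PMEL reached 2.40, and MITF was higher in SK-OV-3 (9.15 to 9.60) than in WM793B cells (8.21 to 8.56). Of the prostate markers in PC-3 cells KLK2 was at noise and HOXB13 read 8.74 to 11.3. KLK3 read 4.10 to 4.96 there, no higher than in SK-OV-3 (4.52 to 5.11) or WM793B cells (4.12 to 4.97). Of the ovarian markers in SK-OV-3 cells MUC16 was at noise, while PAX8 read 9.08 to 9.56 and ERBB2 12.5 to 13.3. WT1 was lower in SK-OV-3 cells (2.76 to 4.29) than in PC-3 (4.90 to 6.17) and WM793B cells (5.40 to 6.87).

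Of 5 leukocyte and stromal markers, CD3E and CD14 were at noise in all lines and PTPRC in SK-OV-3 and PC-3 cells. PECAM1 and COL1A1, a collagen gene that is also made by cancer cells, were above noise in all lines. PECAM1 read 5.17 to 5.97 in control and 6.38 to 6.79 in chronic hypoxia for PC-3 cells. Its values were 3.01 to 3.63 in SK-OV-3 and 3.68 to 4.31 in WM793B cells. COL1A1 moved with oxygen, with values between 8.86 and 9.01 in control and between 9.95 and 10.2 in chronic hypoxia for PC-3 cells, and between 7.83 and 8.10 and between 11.3 and 11.8 for the SK-OV-3 line. The mean of the whole list lay between 4.17 and 4.36 in control and between 4.63 and 4.72 in chronic hypoxia for PC-3 cells, and between 3.57 and 3.62 and between 4.31 and 4.45 for the SK-OV-3 line. The epithelial mean of SK-OV-3 cells lay between 10.5 and 10.6 in control and between 11.1 and 11.2 in chronic hypoxia, and HOXB13 in PC-3 cells between 10.8 and 11.3 and between 8.74 and 8.85. The difference between 3' and 5' probe sets (log2), a sign of RNA quality, was -0.15 to 0.20 for GAPDH and 0.55 to 0.95 for ACTB. In PC-3 cells the ACTB difference was 0.68 to 0.74 under chronic hypoxia and 0.82 to 0.86 in control, without overlap. The part of these markers and of RNA quality in the results below was not tested. Replicate arrays correlated at 0.994 or more. As these are bulk samples, fewer expressing cells and less RNA per cell cannot be told apart.

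By each gene's brightest probe set, AGO2, the Argonaute with slicer activity, had the largest differences from PC-3 cells in control. PC-3 control arrays read 11.08, 11.13 and 11.18 for AGO2, SK-OV-3 arrays 8.89, 8.58 and 8.79, and WM793B arrays 8.51, 8.57 and 8.92. PC-3 cells thus stood apart, 5.21-fold above SK-OV-3 cells (log2 difference 2.38 in size, SE 0.12, adjusted p = 7.79e-06) and 5.51-fold above WM793B cells (SE 0.12, adjusted p = 6.59e-06), while SK-OV-3 and WM793B arrays overlapped (adjusted p = 0.789). Of the 8 measured genes, SK-OV-3 controls had 3 at higher and 4 at lower levels than PC-3 controls, where 33.7% of all 54613 tested probe sets were called at an adjusted p under 0.05 by limma, and 74.6% of the 18169 probe sets with a mean of at least 5. In WM793B against PC-3 controls 1 was higher and 6 lower (33.2% of all probe sets called, 71.5% of those with a mean of at least 5). In WM793B against SK-OV-3 controls 1 was higher and 3 lower (34.8% of all probe sets called, 16.7% higher and 18% lower, and 75.2% of those with a mean of at least 5). With 8 genes, the shares of members called lay above those of all probe sets. They lay on both sides of the shares among probe sets with a mean of at least 5.

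DICER1 was the gene of SK-OV-3 cells. Its control values there were 10.01, 9.52 and 9.66, against 8.50, 8.58 and 8.49 in PC-3 and 8.60, 8.68 and 8.62 in WM793B cells. SK-OV-3 cells were 2.31-fold above PC-3 cells (adjusted p = 0.000172) and 2.13-fold above WM793B cells (adjusted p = 0.000268), without overlap. The next DICER1 probe sets by brightness, 212888_at and 206061_s_at, put SK-OV-3 2.96-fold and 2.80-fold above PC-3 cells. PC-3 and WM793B cells did not differ in DICER1 beyond the error of the fit (log2 difference 0.11, SE 0.12, adjusted p = 0.626).

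AGO4 fell into 3 separate levels, with 7.31, 7.49 and 7.39 in SK-OV-3, 6.57, 6.67 and 6.78 in PC-3, and 5.68, 5.61 and 5.52 in WM793B controls. SK-OV-3 cells were 3.47-fold above WM793B cells (adjusted p = 2.21e-06) and 1.65-fold above PC-3 cells (adjusted p = 0.000222). AGO3, a further Argonaute, read 6.46, 6.35 and 6.53 on PC-3 arrays, 6.63, 6.39 and 6.57 on SK-OV-3 arrays and 4.99, 5.64 and 5.38 on WM793B arrays in control. WM793B cells were lower than PC-3 cells by 2.16-fold (adjusted p = 0.00148) and lower than SK-OV-3 cells by 2.28-fold (adjusted p = 0.000941), and PC-3 and SK-OV-3 arrays overlapped (adjusted p = 0.920). The AGO3 probe set 228932_at, however, placed SK-OV-3 cells 1.81-fold above PC-3 cells (adjusted p = 0.00112).

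PC-3 controls were highest for DROSHA and TARBP2. DROSHA read 9.35, 9.34 and 9.35 in PC-3, 8.79, 9.03 and 8.89 in WM793B, and 8.40, 8.10 and 8.25 on the SK-OV-3 arrays, 3 levels that did not overlap, with PC-3 cells 2.14-fold above SK-OV-3 cells (adjusted p = 6.03e-05) and 1.36-fold above WM793B cells (adjusted p = 0.00654). TARBP2 read 7.15, 7.04 and 7.28 in PC-3 cells and was lower by 1.62-fold in SK-OV-3 cells and by 1.98-fold in WM793B cells (adjusted p = 0.00332 and 0.000567). XPO5 was lowest in PC-3 cells, with 7.97, 7.92 and 7.99, and lay 1.48-fold higher in WM793B cells (adjusted p = 0.00395). For AGO1 the probe sets differed in the distance between lines. WM793B cells were below PC-3 cells by 1.35-fold on the brightest probe set, 218287_s_at (adjusted p = 0.00421), and by 5.66-fold on 228120_at (adjusted p = 2.46e-05). The differences between SK-OV-3 and PC-3 controls in AGO1 (log2 -0.31, adjusted p = 0.0190) and XPO5 (log2 0.40, adjusted p = 0.0185) were near the threshold. The call for AGO1 was lost without PC-3 control replicate 2 or 3 or SK-OV-3 control replicate 3, with adjusted p from 0.0534 to 0.0681. That for XPO5 was lost without PC-3 control replicate 1 or 2 or SK-OV-3 control replicate 2 or 3, with adjusted p from 0.0530 to 0.0634.

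**Figure D1:**
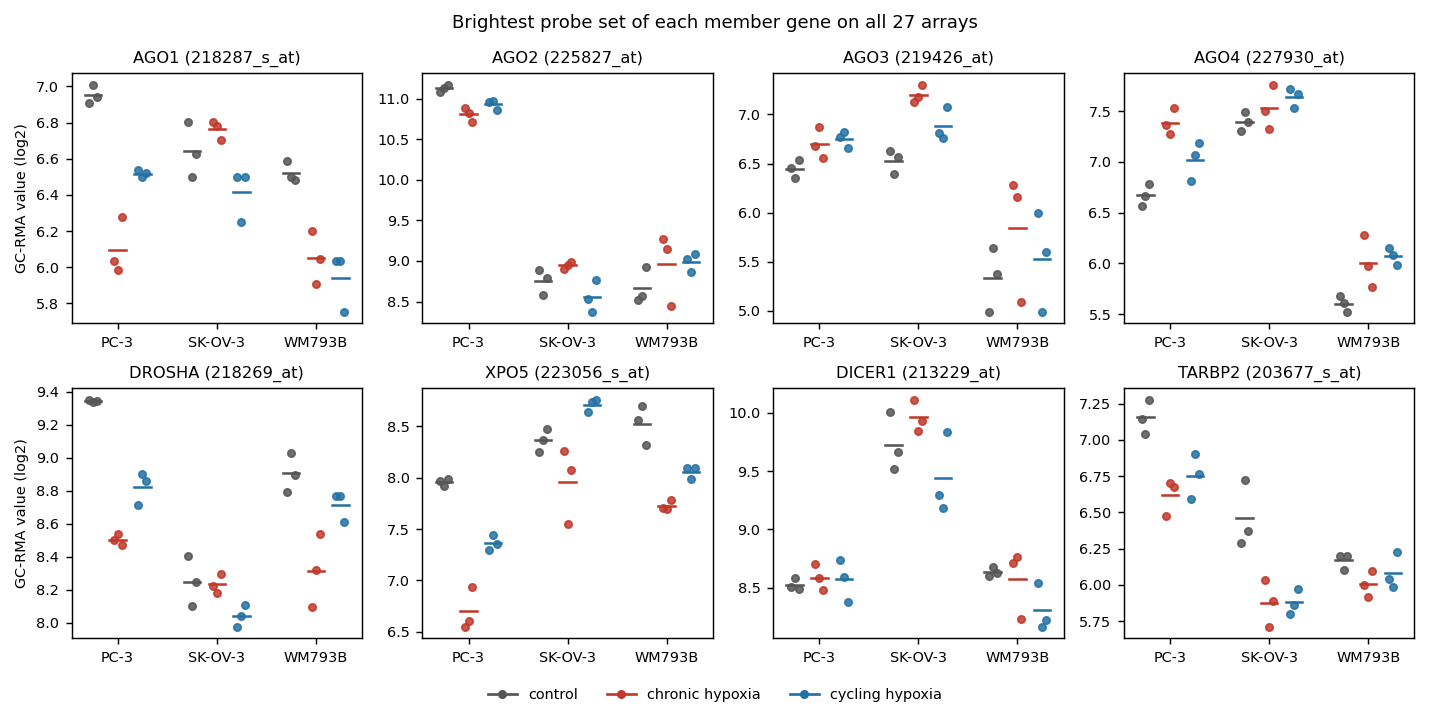
GC-RMA values (log2, vertical axes with separate scales) of the brightest probe set of each measured gene on the 27 arrays. Points are arrays, short lines are the means of 3, and colours give the culture condition. AGO2 was high only on the 9 PC-3 arrays (10.7 to 11.2), DICER1 was highest on SK-OV-3 arrays, and DROSHA and XPO5 were lower under chronic hypoxia than in controls in PC-3 and WM793B cells.

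Chronic hypoxia was first checked on genes known to respond to it. Of 7 measured hypoxia-responsive genes, 6 were higher for PC-3 cells, 7 for the SK-OV-3 line and 6 for the WM793B line under chronic hypoxia, and 6, 6 and 2 under cycling hypoxia, by the same limma fits. Chronic and cycling hypoxia are each set against the same 3 control arrays of a line, so their values stand side by side and were not correlated.

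In PC-3 cells under chronic hypoxia, 5 of the 7 tested genes were lower and AGO4 was higher. XPO5, the export receptor, read 7.97, 7.92 and 7.99 in control cells and 6.55, 6.60 and 6.94 under chronic hypoxia. It was 2.40-fold lower (log2 difference -1.26, SE 0.10, adjusted p = 0.000131), and no array of the groups overlapped. DROSHA went from 9.35, 9.34 and 9.35 to 8.50, 8.54 and 8.47, a 1.79-fold drop (SE 0.05 on the log2 scale, adjusted p = 2.7e-05). AGO1 went from 6.91, 7.01 and 6.94 to 6.03, 5.98 and 6.28, or 1.81-fold lower (adjusted p = 0.000194). Its probe sets 222576_s_at and 228120_at were also lower, by 2.04-fold and 1.70-fold, and 239036_at, near the floor, did not pass the test. TARBP2 was 1.45-fold lower (adjusted p = 0.00831) and AGO2 1.25-fold lower (10.89, 10.83 and 10.71 against 11.08, 11.13 and 11.18, adjusted p = 0.00364). AGO2 was not called when the spread was pooled over all 27 arrays (adjusted p = 0.152).

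AGO4 moved the other way. Its control values in PC-3 cells were 6.57, 6.67 and 6.78 and its values under chronic hypoxia 7.36, 7.27 and 7.53, which is 1.64-fold higher (log2 0.71, SE 0.12, adjusted p = 0.00348), without overlap. The dim AGO4 probe set 219190_s_at was 2.46-fold higher (adjusted p = 0.00227), and 222842_at had a log2 difference of 0.39 that did not pass (adjusted p = 0.151). DICER1 kept overlapping values, 8.70, 8.58 and 8.48 against 8.50, 8.58 and 8.49 (log2 difference 0.06, SE 0.10, adjusted p = 0.823). In all, 1 of the 7 tested genes was higher and 5 were lower. Among all probe sets 26.1% were called (10.9% higher and 15.1% lower), and among those with a mean of at least 5, as all members' brightest probe sets are, 63.5% (26.2% higher and 37.2% lower). So the count of called members, 6 of 7, is to be read against a fit in which most well-expressed probe sets were called. The median log2 difference over the 7 genes was -0.54, beside 0 over all probe sets. Each of the 6 calls remained when any of the 6 arrays was left out.

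Under cycling hypoxia the same PC-3 genes stood between control and chronic levels. XPO5 read 7.29, 7.44 and 7.35, 1.51-fold below control (adjusted p = 0.00783), DROSHA 8.71, 8.90 and 8.86, 1.44-fold below (adjusted p = 0.000526), and AGO1 6.54, 6.50 and 6.52, 1.35-fold below (adjusted p = 0.00829). For each of these 3 genes the cycling arrays overlapped neither the control nor the chronic arrays. Smaller differences were called for TARBP2 (log2 -0.40, adjusted p = 0.0425) and AGO2 (log2 -0.20, adjusted p = 0.0475). The AGO2 call was lost without any of the 6 arrays (adjusted p from 0.0700 to 0.148). The TARBP2 call was lost without cycling replicate 1 or 3 or any control replicate (adjusted p from 0.0556 to 0.131). AGO4, at 6.81, 7.07 and 7.18, had a log2 difference of 0.35 that did not pass (adjusted p = 0.102). AGO4 did pass with the variation filter (adjusted p = 0.0419), without dim probe sets (0.0251) and with the replicate block (0.0384). The same held with its probe sets averaged (adjusted p = 0.0128) and without cycling replicate 1 (0.0349). In the main fit none of the 7 genes was higher and 5 were lower, beside 17.1% of all probe sets called (8.44% higher and 8.64% lower) and 43.7% of those with a mean of at least 5 (21.9% and 21.8%).

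Set directly against chronic hypoxia, cycling hypoxia gave higher XPO5 (log2 0.66, SE 0.10, adjusted p = 0.00712), AGO1 (log2 0.42, adjusted p = 0.0127) and DROSHA (log2 0.32, adjusted p = 0.00591) in PC-3 cells. These were 3 of 7 genes, all higher, while 13.9% of all probe sets were called (9.43% higher and 4.47% lower) and 36.1% of those with a mean of at least 5 (25.3% higher). The AGO1 call was lost when the arrays were quantile-normalized again (adjusted p = 0.0600). AGO4 was lower by 0.37 (adjusted p = 0.0975), which did not pass, although its arrays did not overlap. It passed with the variation filter (adjusted p = 0.0403), without dim probe sets (0.0225) and after quantile normalization (0.0282). It also passed after median centring (adjusted p = 0.0484), with the replicate block (0.0420) and with its probe sets averaged (0.0231).

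SK-OV-3 cells showed another picture. TARBP2, the partner of DICER1, was the gene called in both kinds of hypoxia there. It read 6.29, 6.72 and 6.37 in control, 6.03, 5.71 and 5.89 in chronic and 5.80, 5.86 and 5.97 in cycling hypoxia. The log2 difference from control was -0.59 and -0.58 (SE 0.13, adjusted p = 0.0267 and 0.0389), and the hypoxic arrays did not overlap the control arrays. Without chronic replicate 2 or 3 or control replicate 3 the first call was lost (adjusted p from 0.0564 to 0.0794), as it was with the replicate block (0.0898). The second was lost without any cycling replicate or control replicate 2 or 3 (adjusted p from 0.0666 to 0.127), and when the 2 TARBP2 probe sets were averaged (log2 -0.25, adjusted p = 0.0705) or the replicate number was a block (adjusted p = 0.123). The other TARBP2 probe set, 239389_at, lay near the floor (mean 2.29, above noise on 3 of the 27 arrays), so the average has a smaller difference by its making. TARBP2 was 1 of 7 genes, lower in both comparisons, beside 16.7% of all probe sets called under chronic hypoxia (7.68% higher, 8.99% lower, and of those with a mean of at least 5, 42%, with 18.5% higher and 23.5% lower) and 10.5% under cycling hypoxia (5.43%, 5.04% and 26.9%).

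DROSHA and AGO1, which were lower in hypoxic PC-3 cells, were near their control values in chronically hypoxic SK-OV-3 cells. DROSHA read 8.22, 8.18 and 8.30 against 8.40, 8.10 and 8.25 (log2 difference -0.02, SE 0.08, adjusted p = 1), and AGO1 6.80, 6.78 and 6.70 against 6.80, 6.50 and 6.62 (log2 difference 0.12, SE 0.10, adjusted p = 0.539). The 2 AGO1 probe sets 218287_s_at and 228120_at differed in size under cycling hypoxia, where the first had a log2 difference of -0.23 (adjusted p = 0.268) and the second of -1.07 (SE 0.19, adjusted p = 0.0148). DICER1 probe sets differed in sign. The brightest, 213229_at, had 0.24 under chronic hypoxia (adjusted p = 0.562), whereas 212888_at was lower by 1.25-fold (adjusted p = 0.0125).

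XPO5 separated the kinds of hypoxia in SK-OV-3 cells. It read 8.25, 8.37 and 8.47 in control, 8.26, 7.55 and 8.08 in chronic and 8.64, 8.73 and 8.76 in cycling hypoxia. The chronic arrays reached from within the control range to below it (log2 -0.40, adjusted p = 0.220) and the cycling arrays lay above all controls (log2 0.35, adjusted p = 0.369), neither past the test. Against chronic hypoxia, XPO5 was 1.68-fold higher under cycling hypoxia (SE 0.17 on the log2 scale, adjusted p = 0.0423), and the probe sets 223057_s_at and 223055_s_at were each 1.66-fold higher (adjusted p = 0.0129 and 0.0260). The call of the brightest probe set was lost without any cycling replicate or chronic replicate 3 (adjusted p from 0.0791 to 0.130). XPO5 was 1 of 7 genes called in this comparison, beside 10% of all probe sets (5.65% higher and 4.39% lower) and 25.8% of those with a mean of at least 5. AGO1 (log2 -0.35) and AGO2 (log2 -0.39) were lower under cycling than chronic hypoxia, without overlap, but were not called in this fit. With its probe sets averaged, AGO1 was called (log2 -0.66, adjusted p = 0.0100). Without dim probe sets, AGO2 (adjusted p = 0.0204) and DICER1 (log2 -0.53, adjusted p = 0.0322) were called lower.

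**Figure D2:**
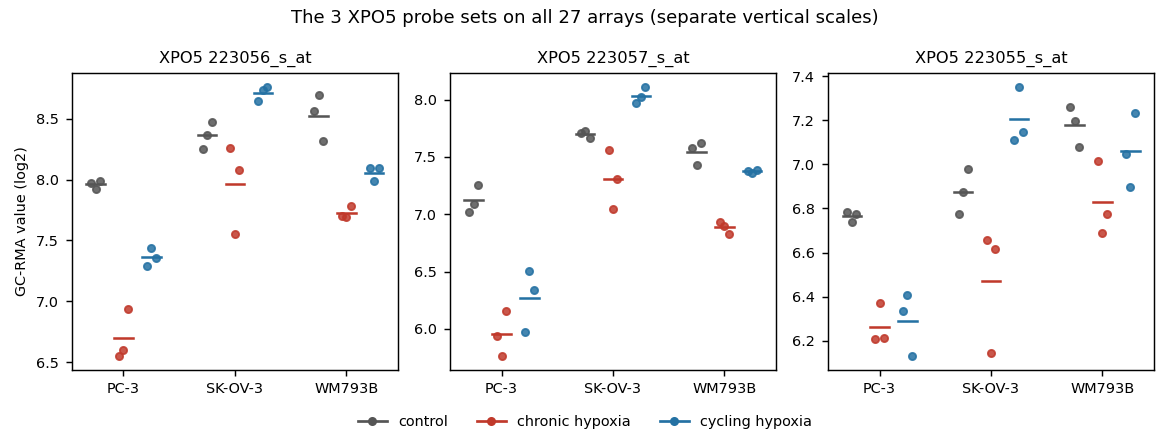
GC-RMA values (log2, separate vertical scales) of the 3 XPO5 probe sets on the 27 arrays, with points for arrays and short lines for means of 3. In SK-OV-3 cells the cycling arrays of each probe set lay above the chronic arrays, and in PC-3 cells all 3 were lower in hypoxia than in control.

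In WM793B cells XPO5, DROSHA and AGO1 were again the genes that were lower. Under chronic hypoxia XPO5 went from 8.56, 8.69 and 8.32 to 7.70, 7.69 and 7.78, which is 1.74-fold lower (log2 -0.80, SE 0.09, adjusted p = 0.0026). Its probe set 223057_s_at was 1.58-fold lower (adjusted p = 0.000813), and 223055_s_at was not called. DROSHA went from 8.79, 9.03 and 8.89 to 8.09, 8.32 and 8.54 (log2 -0.59, SE 0.12, adjusted p = 0.0202) and AGO1 from 6.59, 6.50 and 6.48 to 6.20, 5.91 and 6.04 (log2 -0.47, SE 0.10, adjusted p = 0.0254), neither overlapping the controls. The DROSHA call was lost without chronic replicate 2 or control replicate 2 or 3 (adjusted p from 0.0538 to 0.0728). The AGO1 call was lost without chronic replicate 2 or 3 or any control replicate (adjusted p from 0.0570 to 0.0911), and also when the 4 AGO1 probe sets were averaged (log2 -0.15, adjusted p = 0.287). None of the 7 genes was higher and 3 were lower, beside 14.2% of all probe sets called (6.63% higher and 7.56% lower) and 34.7% of those with a mean of at least 5 (16.4% and 18.4%).

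Under cycling hypoxia WM793B cells had lower AGO1 (6.03, 6.03 and 5.75, log2 -0.58, SE 0.10, adjusted p = 0.0307) and XPO5 (8.09, 7.99 and 8.09, log2 -0.47, SE 0.09, adjusted p = 0.0452), 2 of 7 genes. Here 4.39% of all probe sets were called (2.34% higher and 2.05% lower), and 11% of those with a mean of at least 5. Neither call was firm. AGO1 was lost without any of the 6 arrays (adjusted p from 0.0546 to 0.107) and had a log2 difference of -0.04 (adjusted p = 0.969) when its probe sets were averaged. The further AGO1 probe sets were dim there. Their means in control and cycling hypoxia were 4.34 and 4.40 (222576_s_at), 3.57 and 3.88 (228120_at), and 2.80 and 2.86 (239036_at). XPO5 was lost without any cycling replicate or control replicate 1 or 2 (adjusted p from 0.102 to 0.145). With the replicate number as a block neither was called (adjusted p = 0.0510 for AGO1 and 0.120 for XPO5). AGO4 lay above the controls in both kinds of hypoxia, with 6.28, 5.97 and 5.77 (log2 0.40, adjusted p = 0.0962) and 6.15, 6.08 and 5.98 (log2 0.47, adjusted p = 0.113) against 5.68, 5.61 and 5.52, without overlap and without passing the test. The first of these passed with the replicate block (adjusted p = 0.0435), without dim probe sets (0.0424) and after quantile normalization (0.0331). It also passed with all 27 arrays in the fit (adjusted p = 0.0222) and without chronic replicate 3 (0.0292). The second passed without dim probe sets (adjusted p = 0.0419) and with all 27 arrays in the fit (0.0160). No gene was called between cycling and chronic hypoxia, beside 3.65% of all probe sets (1.85% higher and 1.8% lower). In the same limma fit, DROSHA (log2 0.40, adjusted p = 0.156) and XPO5 (log2 0.33, adjusted p = 0.134) were the 2 genes with an unadjusted p under 0.05, and the XPO5 probe set 223057_s_at was called (log2 0.49, adjusted p = 0.0108).

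The difference between the cell lines was tested itself, as an interaction over all 27 arrays. The response to chronic hypoxia differed for 4 of the 7 genes, AGO1 (adjusted p = 3.44e-05), DROSHA (adjusted p = 0.000103), XPO5 (adjusted p = 0.00395) and AGO4 (adjusted p = 0.0408), beside 30.8% of all probe sets and 65.4% of those with a mean of at least 5. For AGO1 the responses in PC-3, SK-OV-3 and WM793B cells were -0.86, 0.12 and -0.47, for DROSHA -0.84, -0.02 and -0.59, for XPO5 -1.26, -0.40 and -0.80, and for AGO4 0.71, 0.13 and 0.40 (log2). In each of the 4 genes PC-3 cells had the largest response and SK-OV-3 cells the smallest. The AGO4 call was lost without any of 11 arrays, left out singly (adjusted p from 0.0502 to 0.109). The response to cycling hypoxia differed for XPO5 (adjusted p = 0.00148), at -0.60, 0.35 and -0.47 (log2) in the 3 lines, beside 19.9% of all probe sets and 44.4% of those with a mean of at least 5. TARBP2, called in SK-OV-3 and PC-3 cells and not in WM793B cells, did not pass this test under chronic (adjusted p = 0.0828) or cycling hypoxia (adjusted p = 0.0711).

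AGO3 was read by 4 probe sets, and they did not tell the same story. On the brightest, 219426_at, SK-OV-3 cells went from 6.63, 6.39 and 6.57 in control to 7.13, 7.18 and 7.30 in chronic and 6.81, 6.76 and 7.08 in cycling hypoxia, so that both kinds of hypoxia lay above the controls and chronic hypoxia was the higher. PC-3 cells had 6.67, 6.87 and 6.55 in chronic and 6.77, 6.82 and 6.66 in cycling hypoxia against 6.46, 6.35 and 6.53 in control. WM793B arrays scattered, with 6.28, 6.15 and 5.10 in chronic and 5.997, 4.99 and 5.60 in cycling hypoxia, and overlapped the controls.

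On 235782_at, the dimmest AGO3 probe set and the reason for the choice of the gene, cycling hypoxia was the condition that stood out in PC-3 and WM793B cells. PC-3 cells read 3.02, 3.35 and 2.78 in control, 3.43, 2.75 and 2.28 in chronic and 4.14, 4.04 and 4.25 in cycling hypoxia. WM793B cells read 2.83, 2.69 and 2.52 in control, 2.77, 2.85 and 2.73 in chronic and 4.18, 4.32 and 3.57 in cycling hypoxia. In SK-OV-3 cells chronic and cycling arrays overlapped, with 4.37, 3.80 and 3.39 and 3.60, 3.53 and 4.20, all above the controls at 3.29, 2.67 and 3.02.

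In an additive model over the lines, the log2 difference of cycling hypoxia from control was 0.28 on 219426_at, 0.34 on 228932_at, 0.37 on 241091_at and 1.07 on 235782_at. The difference of cycling from chronic hypoxia was -0.20, 0.34, 0.62 and 0.83 in the same order. The difference of chronic hypoxia from control was 0.48, 0.00, -0.25 and 0.24. The values of 228932_at average over lines that differed in direction, as the group means of SK-OV-3 cells were 5.60 in control, 6.13 in chronic and 5.47 in cycling hypoxia, those of PC-3 cells 4.74, 4.36 and 5.07, and those of WM793B cells 3.93, 3.78 and 4.75. After subtraction of each line's mean, values of 219426_at correlated over the 27 arrays with those of the others at r = 0.13 (228932_at), 0.05 (241091_at) and 0.21 (235782_at), whereas the other 3 correlated among themselves at 0.53 to 0.68. These are descriptions over arrays that share cell lines and conditions. On 241091_at the 3 cycling arrays of WM793B cells carried 1 identical value, 3.74, so their SD of 0 is no measure of replicate error. Such repeated values were present in 17 of the 25 member probe sets and in 76.6% of all probe sets.

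**Figure D3:**
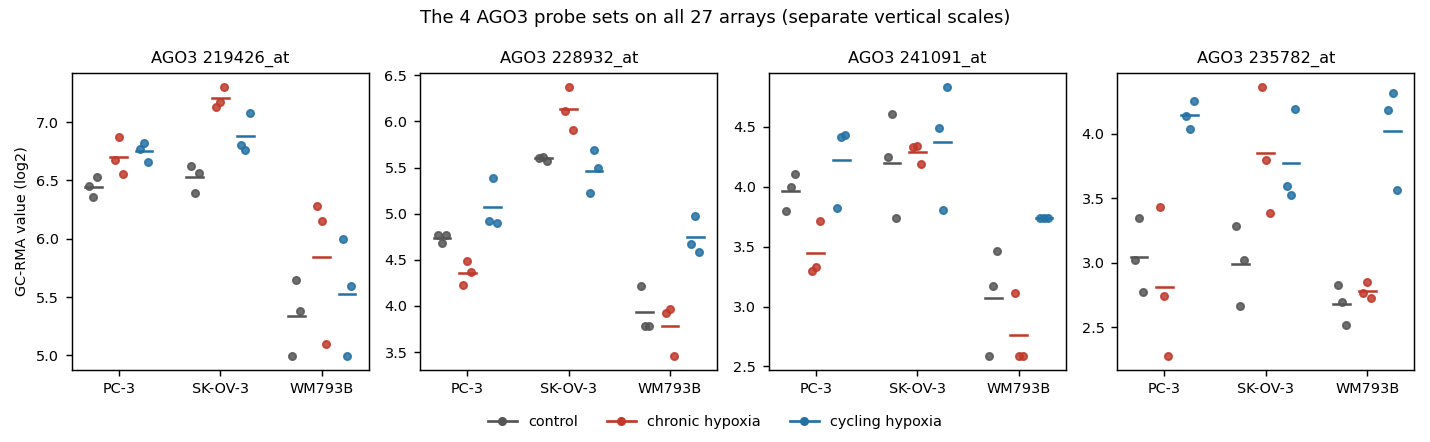
GC-RMA values (log2, separate vertical scales) of the 4 AGO3 probe sets on the 27 arrays, with points for arrays and short lines for means of 3. On 235782_at cycling hypoxia was the highest condition in PC-3 and WM793B cells, while on 219426_at the PC-3 chronic and cycling arrays overlapped and SK-OV-3 chronic arrays were the highest.

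Among 9405 genes read by probe sets with a mean of at least 5, those whose values ran most like the brightest AGO3 probe set within the lines were TTBK2 (r = 0.77), DDAH2 (r = 0.77), PHYKPL (r = 0.77), CD24 (r = 0.75) and KLF12 (r = 0.74), over 27 arrays. The list belongs to this probe set alone, as none of these genes was among the top 5 of another AGO3 probe set. There the first genes were RSL1D1 (r = 0.84, 228932_at), KMT2D (r = 0.73, 241091_at) and HERC4 (r = 0.79, 235782_at).

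Beyond the core set, genes of the wider pathway were counted by list in the same fits. Under chronic hypoxia 37.2% of the probe sets with a mean of at least 5 were lower and 26.2% higher in PC-3 cells, 23.5% and 18.5% for the SK-OV-3 line and 18.4% and 16.4% for the WM793B line, and the chronic counts below stand beside these shares. Of all probe sets, 15.1% and 10.9%, 8.99% and 7.68%, and 7.56% and 6.63% were lower and higher in the same order. The cycling counts stand beside smaller shares. With a mean of at least 5, 21.8% were lower and 21.9% higher in PC-3 cells under cycling hypoxia. For the SK-OV-3 line these shares were 12.9% and 13.9%, and for the WM793B line 4.62% and 6.41%.

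Among cofactors of the first cleavage, those that were called under chronic hypoxia were lower with 1 exception in each line. Of 11 measured cofactors, 6 were lower and 1 higher for PC-3 cells, 5 and 1 for the SK-OV-3 line and 6 and 1 for the WM793B line, with median log2 differences of -0.33, -0.22 and -0.32 beside 0 over all probe sets. Under the alternatives the lower count ran from 2 to 7, 2 to 6 and 2 to 7. NCBP1, the large subunit of the nuclear cap-binding complex, was lower in each line (log2 -1.31, -0.89 and -0.70). SRSF3, a splicing factor that also binds beside microRNA hairpins, was lower in PC-3 and WM793B cells (log2 -0.99 in both). HNRNPA1, an RNA-binding protein that helps with single hairpins, was the cofactor that was higher in each line (log2 0.76, 0.66 and 1.53), on a probe set of a type that can cross-hybridise with related transcripts. Under cycling hypoxia 5 were lower and 1 higher for PC-3 cells, 1 and 3 for the SK-OV-3 line and 1 and 0 for the WM793B line.

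Of 9 measured partners of export and loading, 7 were lower and 1 higher for PC-3 cells, 4 and 0 for the SK-OV-3 line and 3 and 1 for the WM793B line under chronic hypoxia, with medians of -0.44, -0.21 and -0.30 (log2). Under the alternatives the lower count ran from 5 to 8, 4 to 6 and 2 to 5. TSN, the translin subunit of the nuclease C3PO that clears the passenger strand, was lower in all lines (log2 -0.52, -0.43 and -0.35). Its partner TSNAX was lower in SK-OV-3 and PC-3 cells (log2 -0.80 and -0.90). HSP90AA1, a chaperone of Argonaute loading, was lower by 0.87 in WM793B cells, where PRKRA, a further DICER1 partner, was higher by 0.73 (log2).

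Of 5 measured enzymes that modify AGO2, 4 were higher for PC-3 cells, 3 for the SK-OV-3 line and 3 for the WM793B line under chronic hypoxia, and 4, 2 and 3 under cycling hypoxia. 1 was lower in PC-3 cells in each and 1 in WM793B cells under cycling hypoxia, and 2 of 5 were not called in chronic hypoxia for either of the other lines. P4HA1 and P4HA2, the catalytic subunits of collagen prolyl 4-hydroxylase, were known hypoxia-responsive genes when the list was written. P4HA1 rose by 1.66, 3.01 and 2.04 and P4HA2 by 2.56, 1.37 and 1.72 (log2) in PC-3, SK-OV-3 and WM793B cells under chronic hypoxia. EGFR, a kinase that phosphorylates AGO2 in hypoxia, rose in SK-OV-3 and PC-3 cells (log2 1.17 and 1.04). PTPN1, the phosphatase that reverses this mark, was lower in PC-3 cells (log2 -0.64).

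Effectors downstream of the Argonautes went in both directions. Under chronic hypoxia 8 of 17 were higher and 4 lower for PC-3 cells, 4 and 2 for the SK-OV-3 line and 4 and 1 for the WM793B line, and the PC-3 count of higher genes ran from 4 to 8 under the alternatives. The decapping enzyme DCP2 rose in SK-OV-3 and PC-3 cells (log2 0.70 and 0.68). The GW182 scaffolds, which bind Argonautes, did not move together. TNRC6B was lower in PC-3 cells under chronic hypoxia (log2 -0.76) and in SK-OV-3 cells in cycling hypoxia (log2 -1.10), and TNRC6C was lower in chronically hypoxic SK-OV-3 cells (log2 -0.93). LIMD1, a scaffold between Argonautes and TNRC6 proteins, was lower in SK-OV-3 cells in cycling hypoxia (log2 -1.66) and higher in PC-3 cells (log2 0.52).

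Of 10 genes of microRNA tailing and turnover, PNPT1, an exoribonuclease, was lower under chronic hypoxia in all lines (log2 -1.52, -0.67 and -0.68). No more than 4 of the 10 were called in any line under chronic hypoxia, 1 of them higher and 3 lower in PC-3 cells. Under cycling hypoxia 3 were higher and 3 lower for PC-3 cells, 0 and 0 for the SK-OV-3 line and 0 and 1 for the WM793B line. Between cycling and chronic hypoxia, 4 were higher and 0 lower for the SK-OV-3 line, 4 and 1 for PC-3 cells and 0 and 1 for the WM793B line. The 3 measured PIWI genes, which act in the germ line, were not called in any of the 9 comparisons of conditions.

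Among host transcripts of microRNAs, MIR210HG had the largest difference from control in each line under chronic hypoxia. It rose by 1.88 for PC-3 cells, 4.03 for the SK-OV-3 line and 3.58 for the WM793B line (log2, adjusted p = 0.0011, 6.72e-05 and 0.000191), and had lower values in cycling than in chronic hypoxia in each line (log2 -1.06, -3.02 and -3.01). The mature microRNA of this locus is printed here with its seed, bases 2 to 8, in capitals, since its host had the largest difference of the listed hosts under chronic hypoxia (chr11:568112-568133, minus strand, GRCh38.p14, RefSeq).
hsa-miR-210-3p: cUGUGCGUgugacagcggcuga
The arrays read the long host transcript and not the mature microRNA. MCM7, whose introns hold the miR-106b cluster, was lower under chronic hypoxia in PC-3 and WM793B cells (log2 -0.87 and -1.42). Of 22 measured host genes, 9 were higher and 5 lower for PC-3 cells, 6 and 4 for the SK-OV-3 line and 2 and 4 for the WM793B line under chronic hypoxia, and the PC-3 count of higher genes ran from 5 to 10 under the alternatives. Under cycling hypoxia against control MIR210HG was called in SK-OV-3 cells (log2 1.01), behind MIR100HG (log2 1.76), SREBF1 (log2 -1.48) and MIR31HG (log2 1.31). It was not called in PC-3 cells (log2 0.82, adjusted p = 0.0659) or WM793B cells (log2 0.57, adjusted p = 0.144), where MCM7 had the largest called difference (log2 -0.90 and -1.13). Under cycling hypoxia 5 of the 22 hosts rose and 4 fell for the PC-3 line, as did 5 and 4 for the SK-OV-3 line, and 0 and 2 for the WM793B line.

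**Figure D4:**
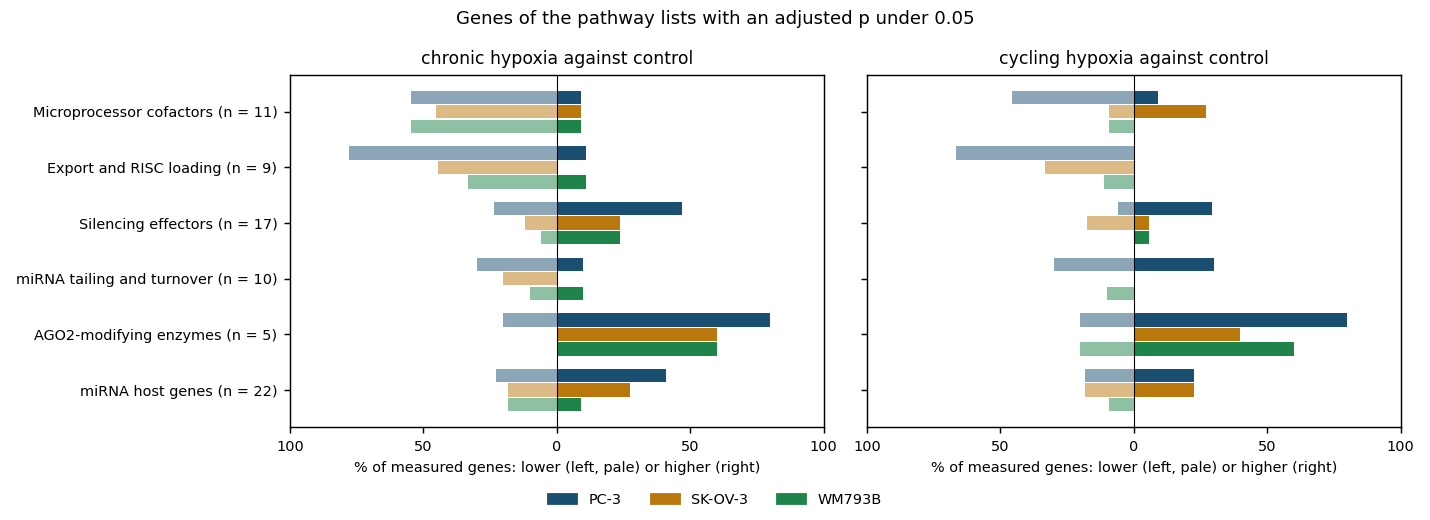
Share of the measured genes of 6 pathway lists (horizontal axis, percent) with an adjusted p under 0.05, lower to the left in pale bars and higher to the right, by cell line, under chronic (left panel) and cycling hypoxia (right panel). Of 9 export and loading partners, 7, 4 and 3 were lower under chronic hypoxia in PC-3, SK-OV-3 and WM793B cells, beside 37.2%, 23.5% and 18.4% of well-expressed probe sets.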

How the data were processed

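Total RNA of 27 cultures was labelled and hybridised to Affymetrix Human Genome U133 Plus 2.0 arrays. The authors made the deposited log2 values with GC-RMA (the gcrma package of Bioconductor), which corrects background by probe sequence, normalizes between arrays and summarises probes. This leaves values at a common floor and repeated values, so small differences of dim probe sets are compressed, and the number of arrays (3 per group) limits precision. The members, the pathway lists and the tests were chosen with earlier results of these data known. From the deposited values, limma 3.58.1 in R 4.3.3 was fitted (lmFit, eBayes with trend) to the 9 arrays of each cell line, to the 9 control arrays, and, for the difference between lines, to all 27 arrays (F-test). The fits used 54613 probe sets, 62 control probe sets being left out, with Benjamini-Hochberg adjustment over all, and a probe set was called at an adjusted p under 0.05. No variation filter was applied in the main fits. That of the study would drop the brightest probe sets of AGO1, DROSHA and TARBP2. A gene was read by the probe set with the highest mean over the 27 arrays. Counts exclude AGO3 in comparisons of oxygen conditions. Symbols came from the platform annotation (41091 probe sets with a single symbol, 1801 with several and 11721 with none). The study's noise level of 5 was read on the linear scale, which is 2.32 in log2. From each list at most 4 called genes per comparison were named, those with the largest differences. Scripts were tested on simulated data. Figures were drawn with matplotlib 3.10.9. No source says that replicate numbers mark shared batches. The deviations of equally numbered arrays correlated at -0.11 to 0.29 and 9 of 27 pairs were above 0.1. Among these were all 3 of cycling with chronic hypoxia in WM793B cells, and 2 of 3 of cycling hypoxia with control there. Alternatives were the study's variation filter, a limit on dim probe sets, a fit without trend, quantile normalization or median centring anew, the mean of a gene's probe sets, a replicate block, a fit of all arrays together and leaving out each array.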

Additional observations from a re-analysis of the deposited data

Results flagged for a closer look

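The responses of 4 of 7 tested genes to chronic hypoxia differed between the cell lines by limma's interaction test, with adjusted p = 3.44e-05 for AGO1, 0.000103 for DROSHA, 0.00395 for XPO5 and 0.0408 for AGO4, beside 65.4% of probe sets with a mean of at least 5 called in this test. The AGO4 call was lost under 12 of 34 alternatives. The response to cycling hypoxia differed for 1 of the 7, XPO5 (adjusted p = 0.00148, beside 44.4% of probe sets with a mean of at least 5), whose log2 difference from control was 0.35 in SK-OV-3 cells and -0.60 and -0.47 in PC-3 and WM793B cells. Groups of 3 arrays are too small for a test of outlying arrays.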

How the results depend on the processing

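Of 690 called values of member probe sets recomputed under the alternatives, 613 kept their call and 77 lost it, and of 938 uncalled values 49 became called. A turn of direction was found for 0 values, but in many it could not occur. The F-tests of the difference between lines have no direction, and values uncalled in both fits were not checked for it. The filters, the fit without trend, the replicate block and the fit of all arrays leave the log2 difference of a probe set as it was. The counts of called genes moved as follows, and the cause was not tested except that the variation filter leaves fewer genes to count. Under that filter, 3 of 4 genes were called in each of PC-3 chronic and cycling hypoxia against control, 0 in SK-OV-3 chronic and cycling hypoxia, 2 for SK-OV-3 cycling against chronic hypoxia, 1 in WM793B chronic and 1 in WM793B cycling hypoxia, and 4 of 5 in control SK-OV-3 and in control WM793B cells against control PC-3. Without dim probe sets, 2 were called in SK-OV-3 chronic hypoxia, 3 for SK-OV-3 and 1 for WM793B cycling against chronic hypoxia, and 2 for the difference between lines under cycling hypoxia. Median centring gave 5 for PC-3 and 3 for SK-OV-3 cells, cycling against chronic hypoxia. With all 27 arrays in the fit, 2 were called in SK-OV-3 chronic hypoxia, and 3 in SK-OV-3 and 1 in WM793B cycling against chronic hypoxia. The mean of a gene's probe sets gave 2 for SK-OV-3 and 1 for WM793B cycling against chronic hypoxia, 1 in WM793B cycling hypoxia and 2 for the difference between lines under cycling hypoxia. The fit without trend gave 1 in WM793B cycling hypoxia. With the replicate number as a block, 0 were called in SK-OV-3 chronic hypoxia, cycling hypoxia and cycling against chronic hypoxia, and 0 in WM793B cycling hypoxia. Equally numbered arrays had r above 0.1 in all 3 pairs (0.12 to 0.20) for cycling and chronic hypoxia of WM793B cells, where 0 genes were called with and without the block. No other comparison within a line had all 3 pairs above 0.1. For WM793B cycling hypoxia with control, where the AGO1 and XPO5 calls were lost with the block, r was 0.16, 0.08 and 0.29. In SK-OV-3 cells r ran from -0.11 to 0.23. Leaving out single arrays gave 6 calls in PC-3 chronic and 3 to 4 in PC-3 cycling hypoxia, 3 for PC-3 cycling against chronic hypoxia, 0 to 1 in each SK-OV-3 comparison, 1 to 3 in WM793B chronic and 0 to 1 in WM793B cycling hypoxia, 5 to 7 and 7 for SK-OV-3 and WM793B against PC-3 controls, 4 to 5 for WM793B against SK-OV-3 controls, and 3 to 5 and 1 to 2 for the differences between lines under chronic and cycling hypoxia. Of 375 called values, 60 lost their call when an array was left out. Such a fit also has fewer than 3 arrays in a group, and what part single arrays had in these losses was not tested. Probe sets near the floor carry little information.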
